A study of Mus musculus with 9 samples.

Results

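The triad of skeletal muscle is the contact between a transverse tubule and the sarcoplasmic reticulum, the calcium store of the fibre. Its calcium release machinery was described here through 10 genes chosen by name: Ryr1 and Ryr3 (release channels), Cacna1s, Cacnb1, Cacng1 and Cacna2d1 (subunits of the voltage sensor), Stac3 (adaptor), Jph1 and Jph2 (junctophilins) and Trdn (triadin). All 10 were found among the 22180 genes measured in hindlimb skeletal muscle of mice. They were chosen with earlier results of these data known. Their counts beside the shares of all genes are therefore descriptions and not a test of the set. Muscles were taken at postnatal day 2 (P2), day 7 (P7) and day 14 (P14), with 3 biological replicates and 3 arrays at each age. The strain is labelled mixed at every age, no treatment or allele is named, and the labels leave unsaid whether 1 animal or several gave each replicate.

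When a muscle fibre fires, the voltage sensor in the tubule membrane moves and opens the ryanodine receptor across the junctional gap, and calcium leaves the store to start contraction. Junctophilins hold the membranes of the junction together, and triadin ties the release channel to the calcium-binding protein calsequestrin inside the store. In rodents the triad is known to be assembled around birth and to take on its ordered transverse position in the first postnatal weeks.

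Values are log2 intensities of 1 probe set per gene, as the authors deposited them, and since probes differ in brightness the levels of different genes are not set against each other. A change is a difference of log2 means (later minus earlier age) ± the standard error (SE) of a limma fit over all genes, and a gene is called changed at a Benjamini-Hochberg adjusted p under 0.05 over the 22180 genes. As a yardstick of background, the highest age mean of each of 1432 smell and taste receptor genes was taken, and its 95th percentile, 3.43, is called the receptor level. All 10 genes exceeded it in at least 1 age and 9 did so at every age, Ryr3 being the exception. The tissue label was checked on 14 general fibre genes, whose mean level ranged over the arrays of P2 (9.31 to 9.60), P7 (9.77 to 9.82) and P14 (10.08 to 10.11). In such bulk samples, fewer fibres and less RNA per fibre cannot be told apart.

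By P14 the machinery stood higher than at P2 in most of its parts, and 1 release channel had fallen. Between P14 and P2, 7 of the 10 genes rose (Ryr1, Cacna1s, Cacna2d1, Stac3, Jph1, Jph2 and Trdn), 1 fell (Ryr3) and 2 were not called (Cacnb1 and Cacng1). Over all genes 11.0% were called, 6.63% higher and 4.40% lower. At an unadjusted p under 0.05 the count was 9 of 10, against 24.3% of all genes. Among the 6651 genes with a mean above that of Ryr3, which had the lowest mean of the 10, the shares were 15.6% and 7.32%. The median change of the 10 genes was 1.08, against 0.01 for all genes. All 3 P14 arrays lay above all 3 P2 arrays for 9 of the 10 genes and below them for Ryr3. Over all genes 16.2% were separated upward in this way and 12.6% downward.

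**Figure D1:**
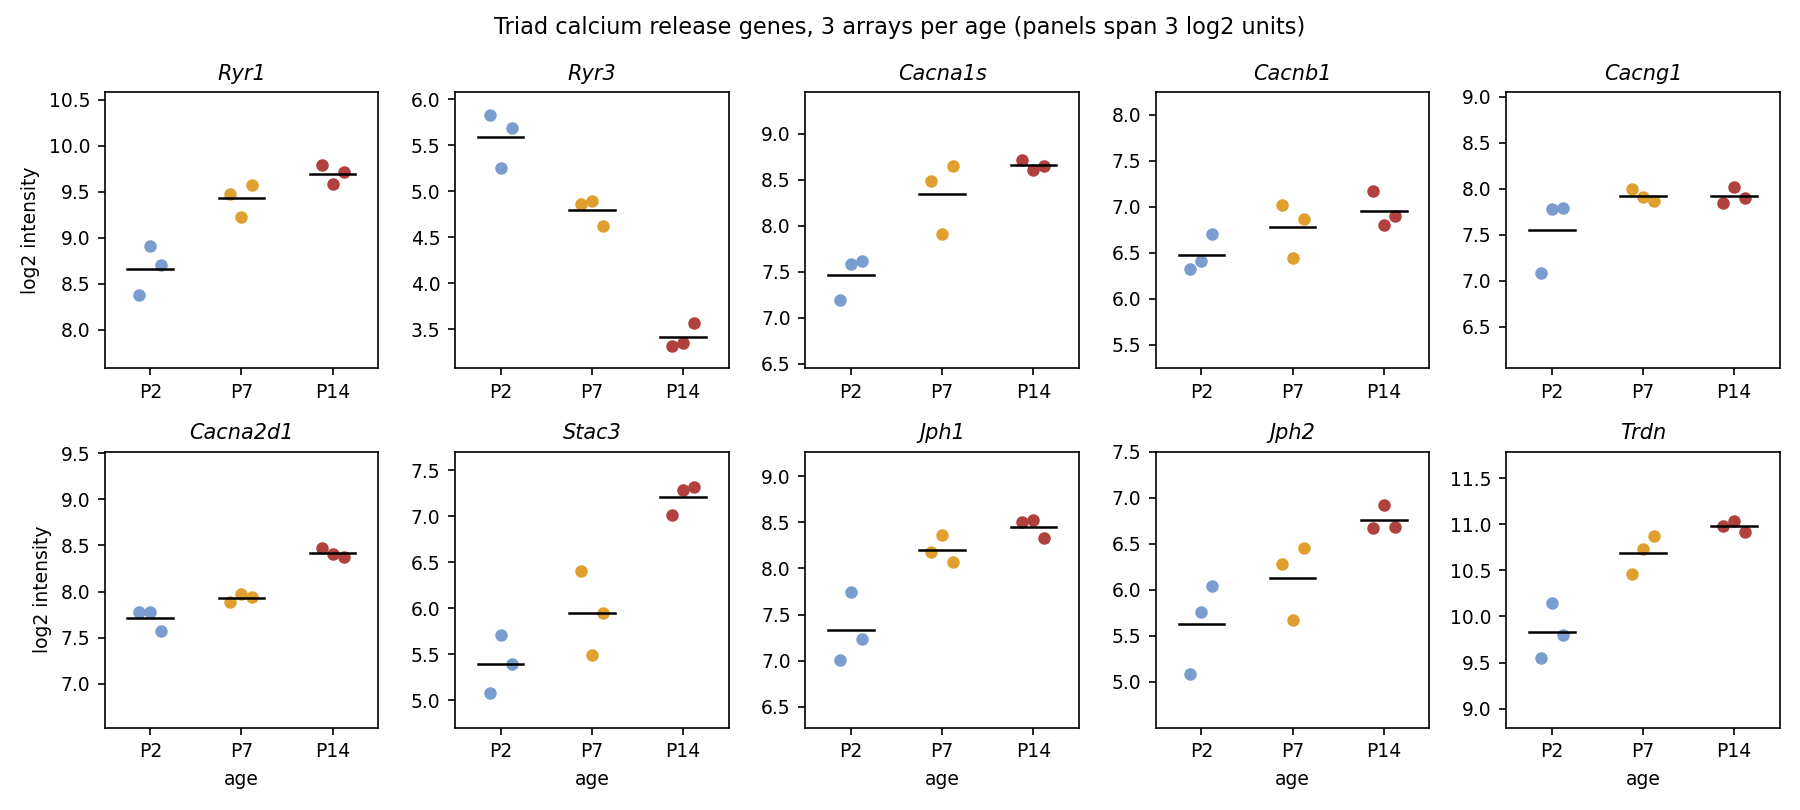
Log2 intensity of each of the 10 genes (y axis, each panel spanning 3 log2 units) on every array by age (x axis, P2, P7, P14); points are arrays and bars are means of 3. The P14 points lie above the P2 points in every panel except that of Ryr3, where they lie below.

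Promoter sequences are shown as a description, and no link between them and the changes with age was tested. The RefSeq promoter table (GRCm38.p6, 250 bases before to 50 after a start) held 5 of the 10 genes, namely Ryr1, Cacna1s, Cacnb1, Cacna2d1 and Jph2, with 7 windows. Both strands were searched for the E box CANNTG, which myogenic bHLH factors such as MyoD are known to bind, for the M-CAT element CATTCC of TEAD factors, and for the MEF2 site. Capitals mark E boxes in the windows of Ryr1 (chr7:29125102-29125401, minus strand), Cacna1s (chr1:136052561-136052860, plus strand) and Jph2 (chr2:163397944-163398243, minus strand).
Ryr1: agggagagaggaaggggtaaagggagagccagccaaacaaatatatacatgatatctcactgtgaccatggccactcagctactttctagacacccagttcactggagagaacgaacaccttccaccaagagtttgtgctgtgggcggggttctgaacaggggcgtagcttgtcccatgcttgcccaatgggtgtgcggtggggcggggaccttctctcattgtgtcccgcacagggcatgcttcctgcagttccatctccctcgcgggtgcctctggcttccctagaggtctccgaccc
Cacna1s: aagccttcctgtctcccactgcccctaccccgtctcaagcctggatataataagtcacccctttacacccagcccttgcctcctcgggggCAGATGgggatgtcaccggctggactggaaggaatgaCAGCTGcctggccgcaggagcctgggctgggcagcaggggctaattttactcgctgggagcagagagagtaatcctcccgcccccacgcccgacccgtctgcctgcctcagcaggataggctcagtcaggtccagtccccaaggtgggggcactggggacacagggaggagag
Jph2: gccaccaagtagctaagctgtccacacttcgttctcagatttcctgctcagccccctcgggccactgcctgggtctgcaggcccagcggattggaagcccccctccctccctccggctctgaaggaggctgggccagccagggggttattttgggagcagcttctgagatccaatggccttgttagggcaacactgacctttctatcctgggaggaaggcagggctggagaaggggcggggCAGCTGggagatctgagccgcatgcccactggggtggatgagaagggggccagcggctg
The Cacna1s window held 2 E boxes, CAGATG at -160 and CAGCTG at -123 from the start, and an M-CAT element at -130, read as GGAATG on the printed strand, which did not overlap either of them. The Jph2 window held 1 E box, CAGCTG at -9, which also fell in the other, overlapping Jph2 window. The other Cacnb1 window held 1 E box (CACATG at -27), while the Ryr1 window, the first Cacnb1 window and the Cacna2d1 window held none. The MEF2 site was searched only as YTAWWWWTAR, where Y is C or T, W is A or T and R is A or G. In this form it was in none of the 7 windows, and looser forms were not searched. E boxes were in 4 of the 7 windows, of 3 genes, and of all 32841 promoter windows 72.3% held one, 14.7% held the M-CAT element and 3.19% the MEF2 site.

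The release channels moved in opposite directions. Ryr1, the channel that couples to the voltage sensor in adult skeletal muscle, read 8.38, 8.91 and 8.70 on the P2 arrays, 9.47, 9.23 and 9.58 on the P7 arrays, and 9.79, 9.59 and 9.71 on the P14 arrays. Every P7 array lay above every P2 array and every P14 array above every P7 array. Ryr1 rose 2.04-fold between P14 and P2 (log2 1.03 ± 0.18, adjusted p = 0.00210). Its P7 mean was 9.43 ± 0.18 and its P2 mean 8.66 ± 0.27 (SD, n = 3 arrays), a difference of 0.76 ± 0.18 that limma did not call (adjusted p = 0.0913). Between P14 and P7 the difference was 0.27 ± 0.18, also not called (adjusted p = 0.563).

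A dimmer probe set of Ryr1 did not follow the brighter one. It averaged 4.65 ± 0.24 at P2, 4.56 ± 0.10 at P7 and 4.77 ± 0.34 at P14 (SD, n = 3). In a fit of all 41345 probe sets its P14 minus P2 change was 0.12 ± 0.20 (limma adjusted p = 0.803), against 1.03 ± 0.18 for the brighter one (adjusted p = 0.0135). With both Ryr1 probe sets averaged the change was 0.58 and the call was lost (adjusted p = 0.0523).

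Ryr3, a release channel that is known to be present in most developing skeletal muscles and to be lost from many of them later, read 5.83, 5.25 and 5.68 at P2, 4.86, 4.89 and 4.62 at P7, and 3.32, 3.35 and 3.57 at P14. The ages did not overlap, and P2 was the highest. Ryr3 fell between P14 and P7 (log2 -1.38 ± 0.19, limma adjusted p = 0.000749) and between P14 and P2 (-2.17 ± 0.19, adjusted p = 4.53e-06), while its P7 minus P2 difference of -0.80 ± 0.19 was not called (adjusted p = 0.0841). At P14, 2 of the 3 arrays were at or under the receptor level of 3.43. With those arrays set to that level, Ryr3 was at least 4.32-fold lower at P14 than at P2 and at least 2.49-fold lower than at P7. These bounds, and those given for Ryr3 below, are on the means and allow for background but not for sampling error. The heart form Ryr2 averaged 2.95 ± 0.14, 2.98 ± 0.06 and 2.98 ± 0.08 at P2, P7 and P14 (SD, n = 3), under the receptor level at each age.

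Within each array the distance between the Ryr1 and Ryr3 signals widened. Ryr1 minus Ryr3 was 2.55, 3.66 and 3.02 at P2, 4.61, 4.33 and 4.96 at P7, and 6.47, 6.23 and 6.14 at P14. Only the shift is readable, since these are different probe sets, and with Ryr3 at P14 near background it is a lower bound. With the brighter Ryr1 probe set it was 3.20 log2 units between P14 and P2 as measured. It was at least 3.14 with the 2 low Ryr3 arrays set to the receptor level. This bound allows for Ryr3 background only. The dimmer Ryr1 probe set, which changed by 0.12 between these ages, would give a smaller shift. The calsequestrins, calcium-binding proteins of the store, showed a like pattern, Casq1 being the fast skeletal form and Casq2 the cardiac and slow form. Casq1 ranged over 11.33 to 11.59 at P14 and 9.77 to 10.24 at P2 and rose (log2 1.44 ± 0.17, adjusted p = 9.51e-05). Casq2 averaged 7.56 ± 0.39 at P14 and 9.10 ± 0.06 at P2 (SD, n = 3) and fell (-1.54 ± 0.19, adjusted p = 0.000139), so that Casq1 minus Casq2 shifted by 2.99. Casq2 fell between P14 and P7 (-1.31 ± 0.19, adjusted p = 0.00170), as did Ryr3.

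**Figure D2:**
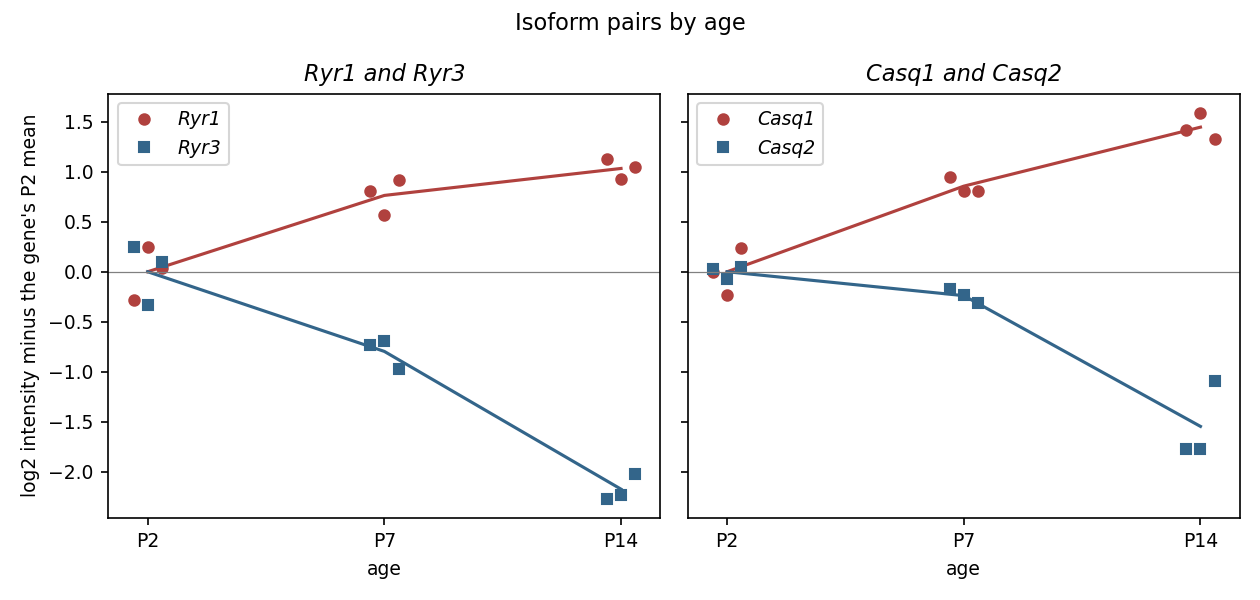
Log2 intensity minus the gene's own P2 mean (y axis) by age (x axis) for Ryr1 and Ryr3 (left) and Casq1 and Casq2 (right); points are arrays and lines join means of 3. At P14 the mean shifts were 1.03 for Ryr1, 1.44 for Casq1 and -1.54 for Casq2. That of Ryr3, plotted as measured at -2.17, ends near background and stands for a fall of at least 4.32-fold.

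The 4 subunits of the voltage sensor did not change alike. Cacna1s, the pore-forming subunit that carries the voltage-sensing domains, read 7.20, 7.58 and 7.62 at P2, 8.48, 7.91 and 8.65 at P7, and 8.71, 8.61 and 8.65 at P14. All P7 and P14 arrays lay above the P2 arrays, and P7 replicate 2 was the lowest of the later ones. Cacna1s rose 2.28-fold between P14 and P2 (log2 1.19 ± 0.20, adjusted p = 0.00176). The P7 minus P2 difference of 0.88 ± 0.20 was not called (adjusted p = 0.0811), nor was the P14 minus P7 difference of 0.31 ± 0.20 (adjusted p = 0.551).

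Cacna2d1, the extracellular alpha-2/delta subunit, which many tissues besides muscle make, read 7.78, 7.77 and 7.57 at P2, 7.88, 7.97 and 7.94 at P7, and 8.47, 8.41 and 8.38 at P14. The P14 arrays stood apart from those of both earlier ages, which lay close together. Cacna2d1 rose 1.64-fold between P14 and P2 (log2 0.71 ± 0.16, adjusted p = 0.00866), with 0.49 ± 0.16 between P14 and P7 and 0.22 ± 0.16 between P7 and P2, neither called (adjusted p = 0.130 and 0.583).

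Cacnb1, the cytoplasmic beta subunit that brings Cacna1s to the membrane, read 6.32, 6.41 and 6.70 at P2, 7.02, 6.44 and 6.87 at P7, and 7.17, 6.80 and 6.90 at P14. Its P14 minus P2 difference of 0.48 ± 0.19 was not called (adjusted p = 0.141). Cacng1, the skeletal gamma subunit and a brake on the channel current, read 7.08, 7.78 and 7.79 at P2, 7.99, 7.91 and 7.87 at P7, and 7.85, 8.02 and 7.90 at P14. Apart from P2 replicate 1, all Cacng1 values lay within 7.78 to 8.02. The P14 minus P2 difference of Cacng1 was 0.37 ± 0.20 (adjusted p = 0.270), and 0.14 without P2 replicate 1 (adjusted p = 0.705). The Cacna1s minus Cacng1 distance shifted by 0.81 between P14 and P2, with values of 0.59 to 0.86 at P14 and -0.19 to 0.12 at P2.

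Stac3, the adaptor that muscle needs for the voltage sensor to reach the triad and open Ryr1, had the largest rise of the 10 genes between P14 and P2. It read 5.08, 5.71 and 5.39 at P2, 6.41, 5.49 and 5.95 at P7, and 7.02, 7.29 and 7.32 at P14. The P2 and P7 arrays overlapped, and the P14 arrays lay above both. Stac3 rose 3.51-fold between P14 and P2 (log2 1.81 ± 0.23, adjusted p = 0.000166) and 2.40-fold between P14 and P7 (1.26 ± 0.23, adjusted p = 0.00908), while the P7 minus P2 difference was 0.55 ± 0.23 (adjusted p = 0.338). The call between P14 and P7 was lost without P14 replicate 2 (adjusted p = 0.0577) or P14 replicate 3 (0.0584). Its relatives Stac and Stac2, which are known from nervous tissue, averaged 2.84 to 3.44 over the ages and were not called; only Stac at P7 (3.44) reached past the receptor level.

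The junctophilins tether the tubule to the store. Jph1, the form enriched in skeletal muscle, read 7.01, 7.75 and 7.24 at P2, 8.18, 8.36 and 8.08 at P7, and 8.50, 8.53 and 8.34 at P14. The P7 and P14 arrays overlapped and all lay above P2. Jph1 rose 2.18-fold between P14 and P2 (log2 1.12 ± 0.20, adjusted p = 0.00199), with an uncalled P7 minus P2 difference of 0.87 ± 0.20 (adjusted p = 0.0729). Jph2, the form shared with the heart, read 5.08, 5.76 and 6.04 at P2, 6.28, 5.67 and 6.45 at P7, and 6.68, 6.92 and 6.68 at P14. It spread widely at P2 and P7 (SD 0.49 and 0.41) and little at P14 (0.14).

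Jph2 rose 2.19-fold between P14 and P2 (log2 1.13 ± 0.25, adjusted p = 0.00921). The Jph1 minus Jph2 distance was 1.70 ± 0.11 at P14 and 1.70 ± 0.44 at P2 (SD, n = 3), a shift of -0.01, with 2.07 ± 0.55 at P7. Jph3 and Jph4, the brain forms, were not called; Jph3 averaged 2.37 to 2.53 and Jph4 3.42 to 3.57 over the ages, near or under the receptor level.

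Trdn, whose protein spans the store membrane at the junction, read 9.54, 10.15 and 9.80 at P2, 10.46, 10.74 and 10.87 at P7, and 10.98, 11.04 and 10.92 at P14. No ages overlapped. Trdn rose 2.21-fold between P14 and P2 (log2 1.15 ± 0.19, adjusted p = 0.00124), with 0.86 ± 0.19 between P7 and P2 (adjusted p = 0.0659) and 0.29 ± 0.19 between P14 and P7 (adjusted p = 0.549), neither called.

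Set by interval, none of the 10 genes was called between P7 and P2 by limma, where 0.329% of all genes were called. Without P2 replicate 2, 4 were called (Ryr1, Ryr3, Jph1 and Trdn, adjusted p of 0.0215 to 0.0463), where 0.929% of all genes were called. With all arrays, the count at an unadjusted p under 0.05 was 6 of 10, against 12.8% of all genes. The arrays of P7 and P2 did not overlap for 6 genes that were higher at P7 (7.30% of all genes) and for Ryr3, which was lower (7.90%). Between P14 and P7, Stac3 was called higher and Ryr3 lower, where 1.72% of all genes were called higher and 0.703% lower (2.43% in all). At an unadjusted p under 0.05 the count was 4 of 10, against 14.6%. Between these ages 5 genes had all P14 arrays above all P7 arrays (14.8% of all genes), Ryr3 had them all below (9.13%), and 4 genes overlapped. Over the 3 ages the moderated F-test called 8 of the 10, against 8.24% of all genes.

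The share of the P14 minus P2 change already present at P7 was taken from the means of the 8 genes that changed. It was 73.9% for Ryr1, 74.0% for Cacna1s, 75.0% for Trdn and 77.6% for Jph1. It was 44.6% for Jph2, 31.3% for Cacna2d1 and 30.5% for Stac3. For Ryr3, whose P14 value is a bound, it was at most 37.7%. The intervals last 5 and 7 days. These shares are descriptions only, since the difference between both intervals was called for 0 of the 10 genes (limma adjusted p of 0.684 to 0.967; 0 of 10 at an unadjusted p under 0.05, against 0.194% of all genes called and 8.12% unadjusted).

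**Figure D3:**
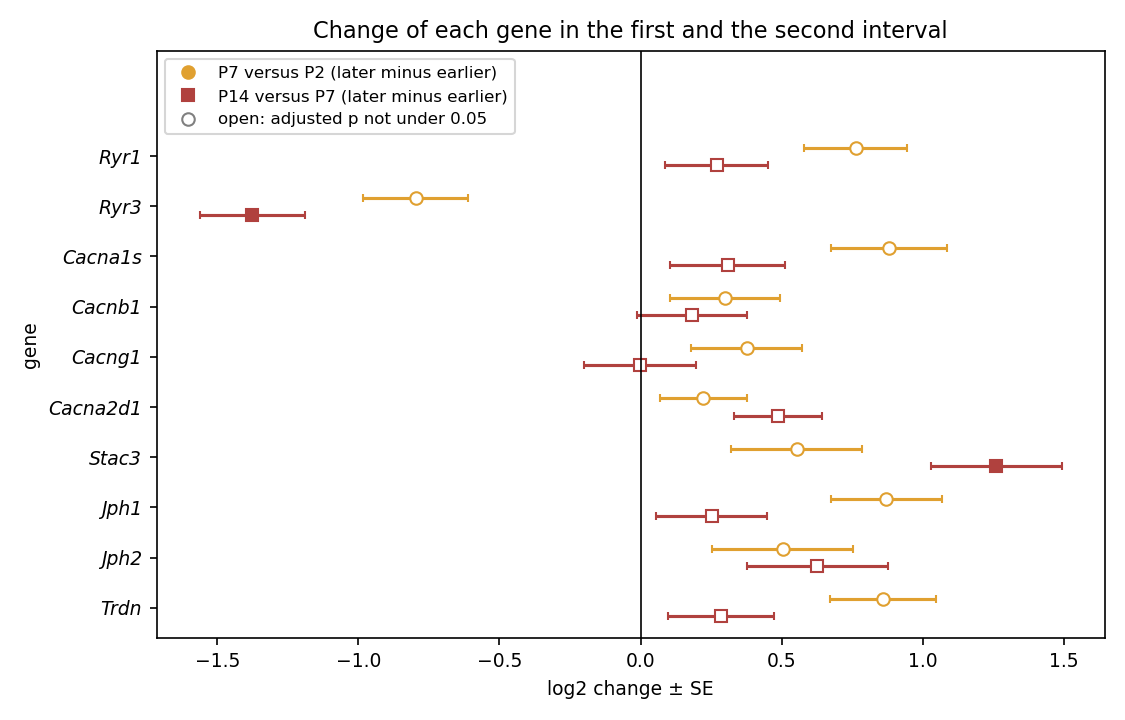
Log2 change ± SE (x axis) of each gene (y axis) between P7 and P2 (circles) and between P14 and P7 (squares); filled symbols have an adjusted p under 0.05. Only Ryr3 (-1.38) and Stac3 (1.26) have filled symbols, both between P14 and P7.

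General fibre transcripts also stood higher at P14. Of the 14 listed fibre genes 7 were called higher and 0 lower between P14 and P2 (median change 0.52), from Mb, the oxygen carrier myoglobin, at 1.92 to the titin gene Ttn at 0.10. The shares of all genes were 6.63% higher and 4.40% lower. The count called higher was 3 without P14 replicate 2, 4 without P14 replicate 1, P14 replicate 3 or P2 replicate 1, and 6 without any 1 of the other arrays. When the mean of those 14 was subtracted within each array, 6 of the 10 triad genes had all P14 values above all P2 values. These were Stac3, which was 1.21 higher, Cacna1s (0.59), Trdn (0.54), Jph2 (0.53), Jph1 (0.52) and Ryr1 (0.43). The share of all genes separated in this way after the subtraction was not taken, so the count has no background beside it. The Ryr1 value is that of its brighter probe set. Before subtraction, Ryr1 changed by 0.58 with both probe sets averaged, against 0.60 for the mean of the fibre genes. For Ryr3 all P14 values lay below all P2 values after the subtraction. Its shift after subtraction was -2.77 as measured and -2.71 with the low P14 arrays set to the receptor level, a bound that allows for background only. Cacna2d1 (0.11), Cacnb1 (-0.12) and Cacng1 (-0.23) then overlapped between P14 and P2.

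The arrays of an age did not place the genes evenly. P2 replicate 1 was the lowest P2 array for 8 of the 10 genes, and the highest for Ryr3 and Cacna2d1. On P2 replicate 1 the 10 genes lay on average 0.23 below their P2 means and the fibre genes 0.19 below theirs. P7 replicate 2 was the lowest P7 array for 5 genes, with a mean deviation of -0.16 for the 10 genes and -0.03 for the fibre genes. At P14 the mean deviation of the 10 genes was within 0.01 on every array. The 8 calls between P14 and P2 held with any 1 of the 9 arrays left out, the highest adjusted p being 0.0491 for Jph2 without P14 replicate 2.

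Partner proteins of the junctional store were read from a list of 18 genes, 15 of them measured. Between P14 and P2, 9 of the 15 rose, 1 fell and 5 were not called (median 0.82), where 6.63% of all genes were called higher and 4.40% lower. The risers, besides Casq1, were Tmem38a, a potassium channel of the store that balances charge during release (log2 1.29 ± 0.18, adjusted p = 0.000376), Sypl2, a membrane protein of the triad (1.15 ± 0.19, 0.00137), Jsrp1, which binds the voltage sensor and calsequestrin (1.04 ± 0.17, 0.000960), and the histidine-rich calcium-binding protein Hrc (0.90 ± 0.16, 0.00252). Homer1, a scaffold that binds ryanodine receptors, rose by 1.04 ± 0.19 (adjusted p = 0.00296). These 6 calls held with any 1 array left out. S100a1 (1.18), Homer2 (0.82) and sarcalumenin Srl (0.61) were also called, but each lost the call without at least 1 array, with adjusted p up to 0.0884, 0.0830 and 0.112. The member that fell was Casq2. Asph, whose gene also encodes the triadin relative junctin, had a change of 0.35 ± 0.18 (adjusted p = 0.256), and the other uncalled genes, Fkbp1a, Fkbp1b, Tmem38b and Selenon, had changes of -0.37 to 0.32. Between P14 and P7, 5 partners rose (Hrc, Tmem38a, S100a1, Homer1 and Homer2, by 0.81 to 1.25) and Casq2 fell, of which the Homer1 (1.14 ± 0.19, limma adjusted p = 0.00483) and Casq2 calls held with any 1 array left out. The shares of all genes called between these ages were 1.72% higher and 0.703% lower. Between P7 and P2 none of the 15 was called by limma; Casq1 came nearest (0.86, adjusted p = 0.0519).

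Relatives of the 10 genes were mostly dim. Of 15 listed, 14 were measured, and 8 of those did not exceed the receptor level at any age. Between P14 and P2, 2 were called, both higher, where 6.63% of all genes were called higher. Cacng6 is another gamma subunit of skeletal muscle and heart (0.78 ± 0.17, limma adjusted p = 0.00820, lost without P14 replicate 1, 0.0521). The other was Cacna2d4 (0.70 ± 0.16, 0.0109, lost without P14 replicate 2 or 3, up to 0.0569), whose P2 mean of 2.93 was under the receptor level. The cardiac pore subunit Cacna1c averaged 4.13 ± 0.21, 4.57 ± 0.14 and 4.40 ± 0.09 at P2, P7 and P14 (SD, n = 3) and was not called (0.27 ± 0.17 between P14 and P2, adjusted p = 0.360).

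**Figure D4:**
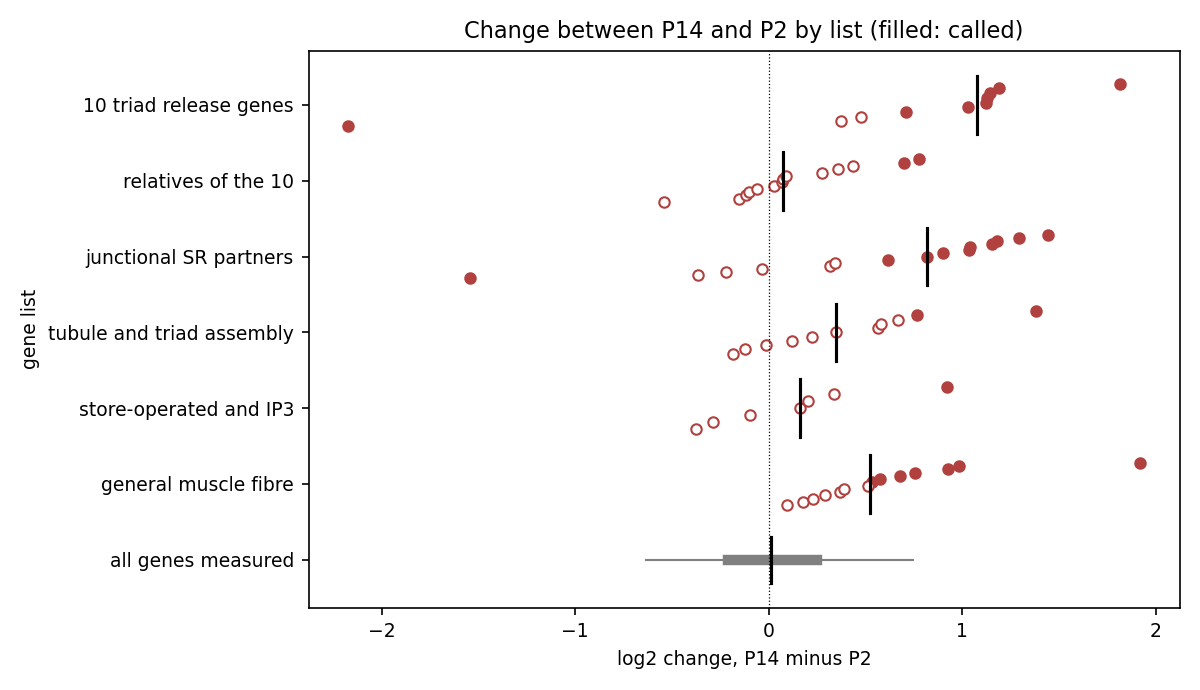
Log2 change between P14 and P2 (x axis) of each measured gene by list (y axis); filled points have an adjusted p under 0.05, black ticks are medians, and the grey bar gives the 25th to 75th and the line the 5th to 95th percentile of all genes. The medians were 1.08 for the 10 triad genes, 0.07 for their relatives, 0.82 for the junctional partners, 0.52 for general fibre genes and 0.01 for all genes.

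Markers of other cells were read beside these values. Between P14 and P2, 6.63% of all genes were called higher and 4.40% lower, and counts of 1 among so few markers lie near those shares. Of 8 satellite cell and myoblast markers, 2 were called lower between P14 and P2 and 0 higher, while 2 had a positive change that was not called. The mean of the 8 was 5.18 to 5.33 at P14 and 5.35 to 5.72 at P2. Of 8 smooth muscle and pericyte markers 3 rose and 0 fell, with a mean of 6.09 to 6.29 at P14 and 5.59 to 5.95 at P2, and 1 was not above the receptor level at any age. Of 8 endothelial markers 1 rose, with a mean of 5.97 to 6.12 at P14 and 5.42 to 5.98 at P2. Fibroblast markers had 1 rise and 1 fall among 8 (7.74 to 7.83 at P14 and 7.58 to 8.14 at P2), fat cell markers 1 fall among 5 (4.73 to 5.12 and 5.14 to 5.55), and macrophage markers 0 calls among 8 (4.84 to 4.96 and 4.82 to 5.41). The called markers were Myf5 and Cdh15 (myoblasts, lower), Rgs5, Kcnj8 and Acta2 (smooth muscle and pericytes, higher), Esam (endothelium, higher), Thy1 and Pdgfra (fibroblasts, higher and lower) and Adipoq (fat, lower), names taken after their values were seen. The calls of Myf5, Rgs5, Kcnj8 and Adipoq held with any 1 array left out. The others did not: Acta2 was lost without P14 replicate 2, Cdh15 held in 2 of 9 leave-outs, Esam in 4, Thy1 in 5 and Pdgfra in 1. Without P2 replicate 2 there were 4 falls among myoblast markers, 1 among macrophage markers and 1 rise among heart markers, and without P2 replicate 3 there were 3 rises among endothelial and 2 among fibroblast markers. The part of these markers in the changes of Ryr3 and Cacna2d1, which other cell types can also make, was not tested. Heart markers had 0 calls among 5, with a mean of 3.27 to 3.36 at P14 and 3.17 to 3.38 at P2, and the atrial myosin light chain Myl7 and the natriuretic peptide Nppa did not exceed the receptor level at any age. Nerve and Schwann markers had 0 calls among 6 (3.17 to 3.42 at P14 and 3.04 to 3.44 at P2), 2 of them, Nefl and Snap25, not above the receptor level at any age.

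Genes whose pattern over the 9 arrays was most like that of Ryr1 and of Ryr3 were taken by the smallest root mean square difference after centring each gene on its own mean, among 10603 genes brighter than the median of all genes. For Ryr1 these were Zbtb20, a transcription factor (0.0704 log2 units), Myo18b, an unconventional myosin of striated muscle (0.0866), Tmem42 (0.116), Plxdc1 (0.124) and Cops9 (0.124), where the median candidate differed by 0.506. For Ryr3 they were the imprinted zinc finger gene Plagl1 (0.152), the matrix protein gene Postn (0.171), the creatine synthesis gene Gatm (0.190), the connexin gene Gjd4 (0.204) and the proteoglycan gene Vcan (0.207), where the median candidate differed by 0.969. The P14 mean of Gjd4 (2.78) and the P2 mean of Plxdc1 (3.34) were under the receptor level, and Ryr3 at P14 was near it. Those readings cannot be separated from background.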

How the data were processed

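RNA from mouse hindlimb muscle was profiled on 9 arrays, 3 at each of P2, P7 and P14. The authors deposited log2 intensities of 41345 probe sets. The submitters' processing notes name RMA and Partek with no version or setting; RMA corrects background, normalises between arrays and gives log2 values, from which the log base was taken. Raw intensities were not used here, and the sources used here name neither the array platform nor a genome build.

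Of the probe sets 23521 were paired with 1 gene symbol, 1814 with several and 16010 were not listed in the annotation used; the last are unnamed here. Symbols were updated by Entrez number through the RefSeq gene table of GRCm38.p6. For each gene the single-symbol probe set with the highest mean was kept (22180 genes), with no filter on dim genes. limma 3.58.1 in R 4.3.3 was fitted with 1 mean per age over all 9 arrays, with two-sided tests and Benjamini-Hochberg adjustment across the 22180 genes. With 3 arrays an age, precision is limited, and a p-value reflects only how these samples vary, which may be technical in part. The fit was tested on simulated data with independent noise for each gene, which leaves out deviations that the genes of an array share.

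All 10 triad genes are named. Of 4 lists of related calcium genes, those called in any pair of ages are named with the closest relatives; of the 136 genes listed in all, 127 were measured. The members and lists were chosen with earlier results of these data known. Alternatives covered normalization, probe set choice, filtering, moderation, array weights, the ages fitted, the replicate number as a block and each array left out.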

Additional observations from a re-analysis of the deposited data

How the results depend on the processing

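The 8 calls between P14 and P2 kept their direction under all 10 alternatives and with each of the 9 arrays left out, and the count was 7 to 8. Ryr1 lost its call with its probe sets averaged, and Jph2 with all probe sets tested (adjusted p = 0.0515), which tests more features. Between P7 and P2 the count of the 10 genes called was 0 in the reported fit but 1 with quantile normalization (Trdn), 4 with only genes above the receptor level, which tests fewer genes, 4 with trend and robust moderation, and 0 to 4 with single arrays left out, the 4 arising without P2 replicate 2. Between P14 and P7 it was 1 in place of 2 with all probe sets tested (Stac3 lost, adjusted p = 0.0719), and 1 to 2 with single arrays left out. The difference between the intervals was called for 0 of 10 under every alternative run. For the F-test the count was 6 to 8, Cacna2d1 and Jph2 being lost without any 1 P14 array and with all probe sets tested, Cacna2d1 with cyclic loess, Jph2 without P2 replicate 1 and Ryr1 with its probe sets averaged. The near-zero P14 minus P7 change of Cacng1 was -0.00234 in the reported fit, 0.0289 with array median centring and -0.0511 to 0.0351 with single arrays left out. Apart from the effect of testing more or fewer features, the cause of these moves was not tested.

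With the replicate number as a block the counts were 0 between P7 and P2, 2 between P14 and P7 and 8 between P14 and P2, and no call changed. The sample titles tie same-numbered arrays by the number alone. The correlation of their deviations was -0.04 to 0.07 over 9 pairs, and 3 of the 9 correlated best with their own number. Whether they share an origin cannot be told from these values. Over all genes, counts that moved by over 1.5 times, apart from single arrays left out, were, between P7 and P2 (73 genes), 6 with all probe sets, 12 with only the 2 ages compared, 111 with cyclic loess, 159 with trend and robust moderation and 173 above the receptor level. Between P14 and P7 (538 genes) they were 272 with all probe sets, 818 above the receptor level, 1051 with the 2 ages compared and 1221 with array weights. With all probe sets the F-test called 1003 features (1827 genes in the reported fit) and the difference between the intervals 1 (43 genes). With single arrays left out the counts over all genes were 11 to 206 between P7 and P2, 214 to 794 between P14 and P7, 1373 to 2611 between P14 and P2 (2447 in the reported fit), 18 to 44 for the difference between the intervals and 845 to 2139 for the F-test. Levels near 3.43, those of Ryr3 at P14 and of most relatives, cannot be separated from background here.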

Other observations

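Over all genes 11.0% were called between P14 and P2, 6.63% higher and 4.40% lower, and a count of 1 in a short list lies near those shares. Of 12 listed genes of tubule and triad assembly 11 were measured, and 2 rose between P14 and P2. These were Tcap, a titin cap protein found near the tubules (log2 1.38 ± 0.30, limma adjusted p = 0.00882), and Cmya5 (0.77 ± 0.20, 0.0223). The Tcap call held with any 1 array left out, and that of Cmya5 was lost without P2 replicate 1 or 3 or any P14 array (up to 0.0835), and the count of the 11 called was 1 to 3 with single arrays left out. Bin1, which bends the tubule membrane, had values of 7.66 to 8.05 at P14 and 7.42 to 8.04 at P2 and was not called (0.12 ± 0.19, adjusted p = 0.753). Of 8 listed genes of store-operated and inositol trisphosphate calcium signalling 7 were measured and 1 rose, Stim1, the calcium sensor of the store (0.92 ± 0.20, adjusted p = 0.00869), with 7.90, 7.86 and 7.85 at P14 and 6.48, 7.09 and 7.27 at P2.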
